A study of Mus musculus with 6 samples.

Results

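The very wide open regions are the 810 of 52957 accessible regions, 1.53%, that spanned at least 1500 bp from their deposited start to their deposited stop. They were chosen by width alone. They held 4.97% of all bases in accessible regions, 1408354 of 28323801, and ran from 1500 to 3140 bp with a median of 1670 bp. In 100 of them the width was 2000 bp or more. At the lower border, the members annotated to Plpp3 and Nr2c2 and a region with no gene at chr6:125444693-125446193 were 1500 bp wide. The regions at St3gal1, Ndufa11 and Hnrnpul2 were left out at 1499 bp.

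Open chromatin was mapped by ATAC-seq in NIH3T3 cells, an immortal mouse embryonic fibroblast line, with 3 libraries in each of 2 groups. In one group the stable cells carried the active T3H48-HHR, a self-cleaving hammerhead ribozyme, knocked into intron 3 of Actg1, which encodes gamma-actin of the cytoplasm. The other group carried an inactive form of the same ribozyme at the same place, so both groups hold a knock-in and neither is an unedited line. Whether replicate libraries were made from different cultures or different lines is not in the labels. The p-values thus measure the spread between libraries, possibly a technical one, and ribozyme activity and line history cannot be told apart.

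In ATAC-seq the transposase Tn5 cuts DNA that is not wrapped in a nucleosome and adds sequencing adapters there. Most accessible regions are short stretches between nucleosomes. Wide ones arise where several nucleosomes are missing or loose, as over active CpG island promoters, where RNA polymerase starts transcription and the first transcribed stretch is often accessible as well, or over clusters of enhancers. Genes of cell identity and growth control are known for broad open or broadly marked promoters.

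Of the 613 wide regions at promoters, taken as a region centre within 1000 bp of a transcription start site, 591 carried a gene symbol, and 470 of these symbols (79.5%) had a promoter sequence in the RefSeq table used (build GRCm38.p6). With under 80% matched, no comparison of base composition over the members was made. The 250 bases before the start are shown for 6 of them, chosen because the results below turn on them. Sp1 and Rap2a have some of the highest levels per kb, and Kdm7a a rise shared with a neighbouring wide region. Tmtc2 and H1f10 carry large rises and Twist2 a large fall. The sequences run 5′ to 3′ in the direction of transcription, with each CG dinucleotide in capitals.
Sp1: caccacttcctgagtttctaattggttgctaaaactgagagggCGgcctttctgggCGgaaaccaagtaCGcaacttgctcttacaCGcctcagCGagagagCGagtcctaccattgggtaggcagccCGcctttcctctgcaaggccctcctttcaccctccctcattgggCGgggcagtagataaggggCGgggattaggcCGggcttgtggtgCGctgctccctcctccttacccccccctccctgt
Rap2a: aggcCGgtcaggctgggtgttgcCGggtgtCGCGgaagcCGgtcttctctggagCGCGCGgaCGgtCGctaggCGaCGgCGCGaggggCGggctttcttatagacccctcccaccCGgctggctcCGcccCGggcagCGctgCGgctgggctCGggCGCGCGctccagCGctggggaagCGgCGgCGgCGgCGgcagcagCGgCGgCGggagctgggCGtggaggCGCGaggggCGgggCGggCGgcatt
Kdm7a: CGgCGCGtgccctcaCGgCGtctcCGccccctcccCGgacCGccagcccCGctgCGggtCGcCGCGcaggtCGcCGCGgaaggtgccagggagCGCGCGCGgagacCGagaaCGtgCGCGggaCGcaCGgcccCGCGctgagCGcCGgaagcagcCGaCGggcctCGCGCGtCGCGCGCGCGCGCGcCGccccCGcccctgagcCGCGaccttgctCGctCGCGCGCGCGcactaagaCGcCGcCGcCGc
Tmtc2: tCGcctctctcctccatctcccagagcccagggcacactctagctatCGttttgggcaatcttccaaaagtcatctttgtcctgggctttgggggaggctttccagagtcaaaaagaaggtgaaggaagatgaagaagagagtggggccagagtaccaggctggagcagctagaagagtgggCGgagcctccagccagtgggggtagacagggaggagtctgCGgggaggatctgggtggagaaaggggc
H1f10: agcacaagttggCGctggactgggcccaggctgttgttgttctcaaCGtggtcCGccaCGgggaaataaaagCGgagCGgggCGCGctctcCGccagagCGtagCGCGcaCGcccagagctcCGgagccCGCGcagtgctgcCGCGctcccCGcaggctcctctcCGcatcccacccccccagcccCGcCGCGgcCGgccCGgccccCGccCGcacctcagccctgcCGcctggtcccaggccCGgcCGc
Twist2: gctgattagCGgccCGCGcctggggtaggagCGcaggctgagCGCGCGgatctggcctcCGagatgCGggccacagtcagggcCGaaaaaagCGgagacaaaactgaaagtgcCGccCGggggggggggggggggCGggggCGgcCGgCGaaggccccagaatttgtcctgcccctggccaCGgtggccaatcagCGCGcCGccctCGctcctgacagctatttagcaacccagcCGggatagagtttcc
In GRCm38.p6 these windows lie at chr15:102406066-102406315 on the plus strand for Sp1, chr14:120478211-120478460 on the plus strand for Rap2a and chr6:39206774-39207023 on the minus strand for Kdm7a. Tmtc2 lies at chr10:105574480-105574729 on the minus strand, H1f10 at chr6:87981483-87981732 on the minus strand and Twist2 at chr1:91801211-91801460 on the plus strand. The regions themselves are given in mm39, so the windows were not overlaid on them by position. The CG dinucleotide occurs 56 times in the Kdm7a window, 39 times at Rap2a, 30 at H1f10, 23 at Twist2, 11 at Sp1 and 4 at Tmtc2. Of the 32851 windows in the RefSeq table, 92.1% hold at least 1 CG, and the median is 6. The GC box GGGCGG, searched on both strands, was found 5 times in the Rap2a window, 4 times each at Sp1 and Twist2, 3 times at Kdm7a and 1 time each at Tmtc2 and H1f10; 32.7% of all windows hold it. Of the windows shown, Tmtc2 alone has fewer CG dinucleotides than the median.

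Wide regions were mostly promoters of protein-coding genes. The promoter share was 75.7% (613 of 810), against 20.9% of the narrower regions. Among narrower regions matched on mean level the share was 62.1%, so most of the gap was between regions of unlike level. The match was made in 4 bins cut at the quartiles of the wide regions' mean level. The bins were averaged with equal weight and took in 22861 narrower regions. In the lowest bin, where the match in level was loose, 68.5% of the wide and 30.3% of the narrower regions were promoters. In the bins above it the shares were nearer, 74.9% and 64.4%, then 77.1% and 73.3%, then 82.3% and 80.5%. A gene was annotated to 703 of the 810 wide regions, a different one each time, and 655 of these genes were protein-coding, 28 were long noncoding RNA genes and 5 were miRNA genes. The other 107 had no gene, and 90 had a gene whose start lay more than 1000 bp from the centre.

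**Figure D1:**
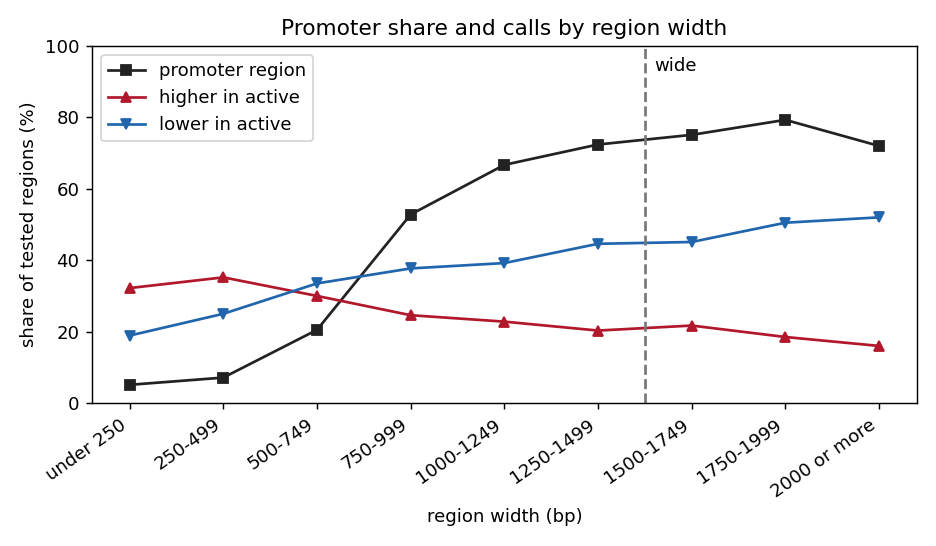
Share of tested regions (y axis, %) that were promoters (black squares), higher in the active libraries (red triangles, point up) or lower in them (blue triangles, point down), in classes of region width (x axis, bp); the dashed line marks 1500 bp. The share of lower regions goes from 18.9% under 250 bp to 52% at 2000 bp or more, while the share of higher regions goes from 32.2% to 16%.

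At promoters, the wide regions lay across the start site and reached further into the gene than before it. The start site was inside the region in 600 of 613 promoter members (97.9%). The rules largely set this share, as a region of at least 1500 bp centred within 1000 bp of a start mostly covers it. The median reach was 1054.5 bp downstream of the start and 632.5 bp upstream, and 413 of the 600 (68.8%) extended further downstream than upstream. Of the 8604 narrower promoter regions with a level in the range of the wide ones, 7895 (91.8%) held the start. Among these 7895, 5517 (69.9%) had the same lean to the downstream side. Their distances were shorter, 515 bp and 353 bp. This follows from the width rule, as the distances add up to the width where the start is inside. The 8604 regions were pooled without the match in bins, and 5623 of them lay in the lowest level bin. The part of level in the shares above was not tested.

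Levels are given as normalised reads per region, the deposited values. The wide regions had a median mean level of 466.5, against 59.8 in the narrower tested regions, and lay between 70 and 2047. Per kb of width they stood at a median of 268.6, against 139.1 in all narrower regions. Against narrower regions of similar total level, the wide ones were thinner per kb, 293 against 473, which follows from the match on the total. Over all 52957 regions, width and level went together (Spearman's rho 0.85 across regions, a description, since a wider region collects more reads and regions share the libraries). Within the members the relation was weak (rho 0.22): width beyond the minimum of 1500 bp went only loosely with level.

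The widest member was a promoter region of 3140 bp at Ppp2r3d, which encodes a regulatory subunit of protein phosphatase PP2A, at chr9:124194185-124197325. It was also the member with the highest level, with 2029, 2046 and 1885 in the active and 2126, 1967 and 2230 in the inactive libraries, and these ranges overlapped (log2 fold change of active over inactive, with SE, -0.08 ± 0.04; limma, adjusted p = 0.0601). The next widest was a region with no gene at chr18:39622018-39624903, 2885 bp wide. Its values were 774, 848 and 760 in the active and 1067, 1063 and 1155 in the inactive libraries, all active ones lower (-0.46, SE 0.05, adjusted p = 1.08e-10 by limma). Among the other 8 of the 10 widest were Arid1b (2759 bp), a subunit of the BAF chromatin remodelling complex, Ssbp4 (2707 bp), Nrp1 (2636 bp), a coreceptor for semaphorins and VEGF, and Il3ra (2629 bp), the alpha chain of the interleukin-3 receptor. Tagln2 (2557 bp), an actin-binding protein of the transgelin family, the transcription factor Maf (2549 bp), Def8 (2548 bp) and the metalloprotease Tll1 (2517 bp) completed them. Of these 10, Il3ra and Def8 rose, Arid1b, Ssbp4, Nrp1, Maf and the chromosome 18 region fell, and Ppp2r3d, Tagln2 and Tll1 did not pass the test. When values were centred on the shift of the surrounding 10 Mb, as described further on, Arid1b, Maf and the chromosome 18 region no longer passed, while Ppp2r3d and Tagln2 became lower (-0.14 each). Among the 4 of these genes that fell, Nrp1 had the largest fall, with 296, 352 and 294 against 396, 407 and 449 (-0.41, SE 0.07, adjusted p = 6.07e-06 by limma). Il3ra had 999, 949 and 998 in the active and 584, 575 and 622 in the inactive libraries, well apart (0.73, SE 0.05, adjusted p = 9.16e-16 by limma).

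Levels can be compared between regions per kb. Per kb of width, the highest mean levels were those of Setd5, a SET domain protein linked to chromatin, at 1108, and of Sp1, the transcription factor that binds GC boxes, at 1095. They were followed by Ypel5 at 999.8, the immediate-early transcription factor Egr1 at 920.5, the small GTPase Rap2a at 887.3 and the circadian repressor Bhlhe40 at 850.8. Kctd9 at 850.5, the kinase Pim1 at 824.5, Eif4ebp1, which holds back the cap-binding protein eIF4E, at 818.4 and the RNA-binding ubiquitin ligase Mex3c at 810.3 closed the list of 10. Sp1 had 1883, 1975 and 1819 in the active and 1543, 1553 and 1517 in the inactive libraries. Every active library was higher (0.30, SE 0.04, adjusted p = 5.76e-09 by limma). Egr1 showed the reverse, with 1471, 1474 and 1462 in the active and 1901, 1914 and 2001 in the inactive libraries (-0.40, SE 0.04, adjusted p = 2.08e-12 by limma). Setd5, Rap2a, Bhlhe40 and Kctd9 were higher too, Pim1, Eif4ebp1 and Mex3c lower, and Ypel5 did not pass. By total level the 10 highest also included Polr2h, a subunit shared by the RNA polymerases, Tnfrsf12a, the receptor of the cytokine TWEAK, and Brd2, a bromodomain protein that reads acetylated histones. All 3 were lower in the active libraries, Brd2 by most, with 1285, 1369 and 1266 against 1621, 1618 and 1606 (-0.31, SE 0.04, adjusted p = 1.14e-08 by limma). After the same centring Brd2 was still lower and Rap2a higher. Sp1 (0.06), Egr1 (-0.01), Kctd9, Eif4ebp1, Mex3c and Polr2h no longer passed, Setd5 (-0.17) and Bhlhe40 (-0.28) turned lower, and Pim1 (0.12), Tnfrsf12a (0.12) and Ypel5 (0.13) were higher.

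The share of normalised reads that fell in wide regions was slightly smaller in the active libraries. It was 6.29%, 6.53% and 6.26% in active replicates 1 to 3 and 6.69%, 6.60% and 6.85% in inactive replicates 1 to 3, or 6.36% ± 0.147 against 6.71% ± 0.128 (SD, n = 3 each). The 2 groups did not overlap, and active replicate 2 came within 0.1 percentage points of inactive replicate 2. On the summed reads themselves, the log2 ratio of active over inactive was -0.07 (exact two-sided permutation test over the 6 libraries, p = 0.2), where 3 against 3 cannot go below 0.1.

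Most wide regions that changed were lower with the active ribozyme, by small amounts. Of the 810, all of which passed the filter of a mean of at least 10, 164 were higher and 382 lower in the active libraries (limma, Benjamini-Hochberg adjusted p under 0.05). These are 20.2% and 47.2%, against 30.9% higher and 29.2% lower among all 51253 regions tested. The median log2 fold change was -0.12, against -0.02 over all tested regions, with -0.59 at the 5th percentile and 0.44 at the 95th. A change of at least 2-fold was called in 20 members (2.47%), 9 higher and 11 lower, while 20.2% of all tested regions had one. The libraries did not overlap in 167 members with all active values above and in 381 with all active values below, 20.6% and 47%, where 31.8% and 30.5% of all tested regions did so. For 182 members (22.5%) the fold change was under 0.1 on the log2 scale in either direction, and for a further 265 it was under 0.25.

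Against narrower regions of similar level, wide regions were called lower more often and higher less often in each of the 4 level bins. With bins weighted equally, 47.2% of the wide and 37.4% of the narrower regions were lower, and 20.2% and 27.4% were higher. The gap was widest in the lowest bin, from 70 to 334.9 reads, with 47.3% against 33.2% lower, and narrowest in the second, with 46.3% against 40.6%. In the highest bin the shares of higher regions were close, 27.1% of the wide and 29% of the narrower. Changes of at least 2-fold were called in 2.46% of the wide and 2.5% of the narrower regions, but 18 of the 20 wide ones lay in the lowest bin, where the match in level was loose (median level 262.8 in the wide and 141.5 in the narrower). In the next bin 0.493% of the wide and 0.82% of the narrower regions had one, and in the one after that 0% and 0.4%. The median spread between replicates, as an SD on the log2 scale, was 0.081 and 0.079 as a mean of the bins. In the lowest bin it was 0.099 in the wide and 0.118 in the narrower regions. In the bins above it was larger in the wide ones, 0.083 and 0.075, then 0.076 and 0.066, then 0.065 and 0.057.

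**Figure D2:**
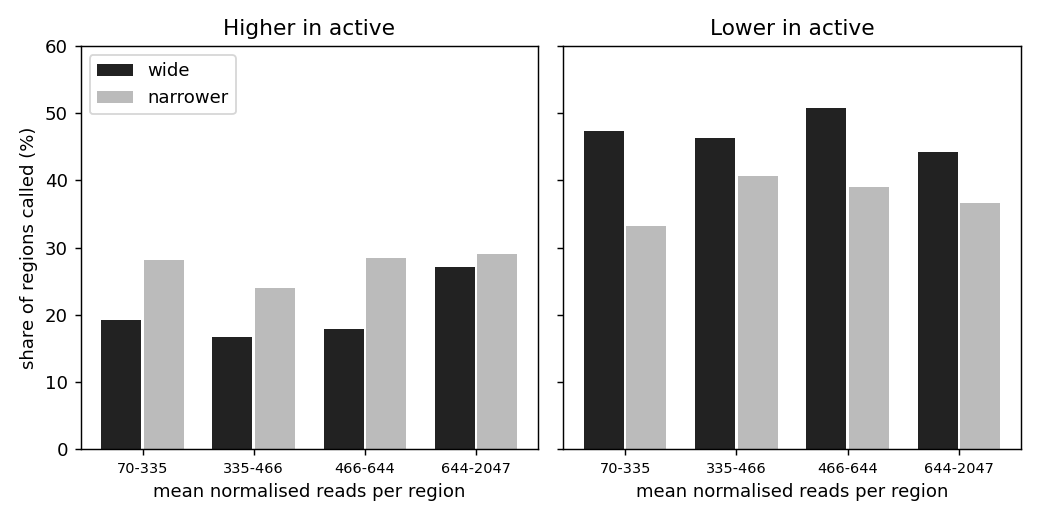
Share of regions called higher (left) and lower (right) in the active libraries (y axis, %) in 4 bins of mean normalised reads per region (x axis), for wide (black) and narrower regions (grey). The black bars for lower regions stand above the grey ones in each bin, from 44.3% to 50.7% against 33.2% to 40.6%.

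To test this gap over libraries, 1 value was taken from each: the median log2 deviation from a region's mean in wide regions minus the same in narrower ones, averaged over the bins. It was -0.05, -0.01 and -0.05 in active replicates 1 to 3 and 0.03, 0.01 and 0.07 in inactive replicates 1 to 3. The active libraries all lay below 0 and the inactive ones above, with active replicate 2 and inactive replicate 2 nearest to it. The difference between the group means was -0.07 (exact two-sided permutation test, p = 0.1, the smallest the design allows). Promoter regions alone gave -0.05 and the other regions alone -0.10, each with p = 0.1 by the same exact test. Active replicates 1 and 2 were scaled up by the authors: 10 and 26 of the whole numbers under 60 never occur in them, and 0 in each other library. They were thus read less deeply than the common scale, and the part of depth in this result was not tested.

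**Figure D3:**
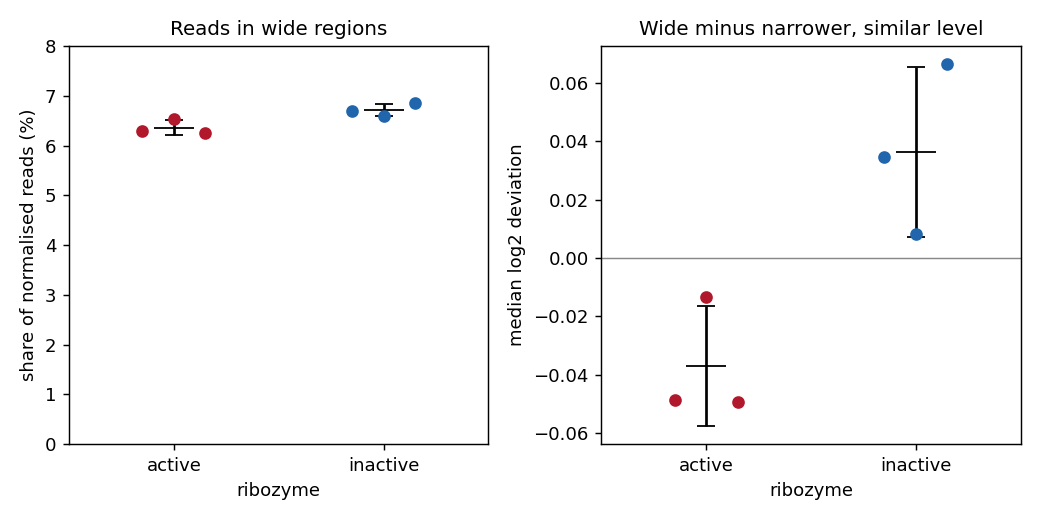
Left, share of normalised reads in wide regions (y axis, %) in the active (red) and inactive (blue) libraries. Right, median log2 deviation of wide minus narrower regions of similar level; each point is 1 library, bars are the mean and SD of 3. The active libraries lie at 6.26% to 6.53% and below 0, the inactive ones at 6.60% to 6.85% and above 0.

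The promoter members and the other wide regions both had more falls than rises. Among the 613 promoter members 127 were higher and 287 lower, with a median log2 fold change of -0.12. Among the other 197 members 37 were higher and 95 lower, with a median of -0.14. Changes of at least 2-fold were called in 1.63% of the promoter members and 5.08% of the others. With values centred on the shift of the surrounding 10 Mb, 33.1% of the promoter members and 46.2% of the others were lower. The difference between them, taken per library, was 0.02 on the log2 scale (exact two-sided permutation test, p = 0.1) and was reversed, at -0.05 (p = 0.3, same exact test), among the 100 regions of at least 2000 bp. Among promoter regions of similar level, 46.9% of the wide and 38.3% of the narrower ones were lower, and 20.5% and 24.4% were higher. Among non-promoter regions of similar level, 48.5% of the wide and 38% of the narrower ones were lower, and 18.85% and 29.6% were higher.

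The direction of a wide region largely followed its chromosome and its surroundings. All 28 members on chromosome 18 were lower, as were 42 of 60 on chromosome 11 and 29 of 40 on chromosome 9, with 0 higher on each. In contrast, 23 of 24 on chromosome 12, 33 of 52 on chromosome 5 and 25 of 35 on chromosome 13 were higher. The narrower regions of these chromosomes leaned the same way. They were taken here over the whole range of level of the wide regions, without the match in bins. Most narrower regions in that range, 18582 of 22861, lay in the lowest level bin. On chromosome 12 the median log2 fold change was 0.43 in the wide and 0.43 in these narrower regions, and on chromosome 18 it was -0.52 and -0.41. The largest gap between the medians was on chromosome 6, with 0.12 in the wide and 0.25 in the narrower regions. The part of level in these gaps was not tested. Chromosome 17 held the most members, 63, or 2.49% of its regions, and 46 of these were lower with 0 higher.

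**Figure D4:**
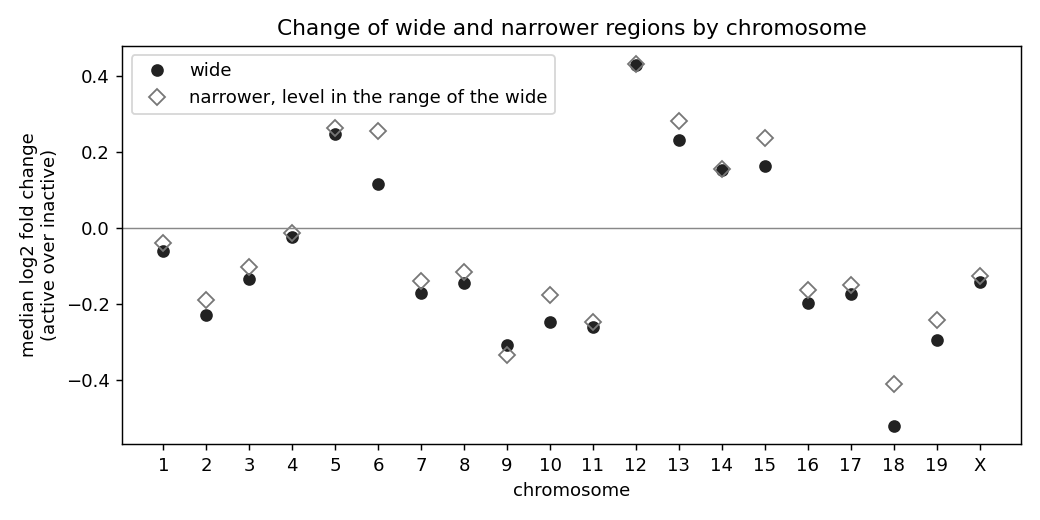
Median log2 fold change of active over inactive (y axis) for each chromosome (x axis), in wide regions (filled circles) and in narrower regions whose level lay in the range of the wide (open diamonds). The circles follow the diamonds from -0.52 on chromosome 18 to 0.43 on chromosome 12, mostly lying a little below them.

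NIH3T3 cells are known for an abnormal number of chromosomes, and copy number was not measured here. The median shift of the narrower regions was therefore taken in windows of 10 Mb. Across the 810 members, a region's log2 fold change and its window's shift had a Pearson's r of 0.65 and a Spearman's rho of 0.71, as a description of regions that share windows and libraries. Of the 546 members called, 475 (87%) had the sign of their window and 71 went against it, 59 of them lower in a window that was raised and 12 higher in a window that was lowered. The share of 87% was not set against that of called narrower regions. When each library's values were centred on these window medians, 81 members were higher and 294 lower, 10% and 36.3%, against 26.5% higher and 24.6% lower among all tested regions. Narrower regions of similar level also had more falls than rises then, with 14.7% higher and 27% lower, beside 9.98% and 36.3% of the wide ones in the same equally weighted bins. The difference per library between wide and narrower regions was -0.06 with centring (exact two-sided permutation test, p = 0.2). Of the original calls, 35 higher and 194 lower ones were kept, and 42 turned to the opposite call, 37 of these from higher to lower. The median became -0.09. The excess of lower over higher wide regions was thus there with and without the window shift, while most single rises were not.

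Among the 10 largest rises, some stood out from their surroundings and others did not. The largest was a region with no gene at chr7:114377195-114378837, with 350, 337 and 351 in the active and 67, 46 and 65 in the inactive libraries. That is 5.83-fold higher with no overlap (log2 2.54, SE 0.11, adjusted p = 1.13e-21 by limma), in a window shifted by -0.05. A region at Def8, whose centre lies 3965 bp from the start site, had 1617, 1827 and 1787 against 405, 430 and 451, and rose by 2.02 (SE 0.05, adjusted p = 2.68e-30 by limma). A second, narrower region of Def8, 473 bp wide and 934 bp from the start, had means of 54 and 63 and did not pass the test (adjusted p = 0.24 by limma).

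Tmtc2, which encodes a membrane protein of the endoplasmic reticulum with TPR repeats, had its wide promoter region at chr10:105409785-105411389. Its values were 373, 406 and 368 in the active and 106, 98 and 109 in the inactive libraries. The active ones were 3.66-fold higher (log2 1.86, SE 0.09, adjusted p = 3.35e-21 by limma), and 1.60 of this was left after centring on the window. H1f10, which encodes a linker histone, had 326, 336 and 297 against 128, 113 and 154 at chr6:87958374-87959879 (log2 1.28, SE 0.09, adjusted p = 4.85e-15 by limma). A narrower region of the same gene, 416 bp wide, was higher as well, with a mean of 71 against 9.67 (adjusted p = 3.20e-13 by limma). Rims2, which encodes a scaffold protein of the presynaptic active zone, had low values throughout, 92, 113 and 93 against 42, 39 and 41, without overlap (log2 1.26, SE 0.15, adjusted p = 1.39e-09 by limma).

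Foxp2, Thsd7a, Adgrl3, Gpc6 and Ahcyl2 completed the rises. The windows of the first 4 were shifted by 0.92 to 0.95 and that of Ahcyl2 by more than Ahcyl2 itself. Foxp2, a forkhead transcription factor, had 353, 373 and 354 against 144, 163 and 157, a log2 change of 1.21 in a window at 0.92. Thsd7a, with thrombospondin type repeats, had 588, 633 and 559 against 284, 271 and 282, 1.08 in a window of the same shift. After centring, Foxp2 stood at 0.29 and Thsd7a at 0.16, still past the threshold. The latrophilin receptor Adgrl3 went from 1.06 to 0.10 and the cell surface proteoglycan Gpc6 from 1.04 to 0.11, and neither passed any more. Ahcyl2, a protein related to S-adenosylhomocysteine hydrolase, had 1144, 1090 and 1110 against 568, 568 and 632, a rise of 0.92 that became a fall of -0.18 after centring (adjusted p = 0.00313 by limma).

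All 10 of the largest falls kept their call after centring on the windows, and 4 of them lay at no annotated gene. The largest was at chr18:46808392-46809912, with 46, 53 and 55 in the active and 268, 261 and 240 in the inactive libraries, 4.99-fold lower in the active ones (log2 -2.30, SE 0.11, adjusted p = 1.91e-20 by limma). Next came chr2:38876442-38878073, with 103, 78 and 106 against 412, 416 and 400 (log2 -2.10), and chr11:31606537-31608107, with 40, 37 and 34 against 149, 157 and 174 (log2 -2.08). The region at chr18:80679181-80680702 fell by 1.56 on the log2 scale, from 271, 285 and 315 to 96, 94 and 104. In none of the 4 did the groups overlap.

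The promoter of Twist2, a bHLH transcription factor of mesenchymal cells, lost most among the named genes. Its region at chr1:91728498-91730030, centred 81 bp from the start, had 81, 80 and 63 in the active and 245, 231 and 210 in the inactive libraries. This is 3.06-fold lower in the active group (log2 -1.61, SE 0.11, adjusted p = 7.21e-16 by limma) and -1.50 after centring. Gm1113, 5433 bp from the region's centre, had 74, 71 and 69 against 189, 220 and 238 (log2 -1.58). Tspan11, a tetraspanin, had 110, 108 and 92 against 293, 305 and 303 (log2 -1.53), while the shift of its window was -0.25. Cxxc5, a CXXC zinc finger protein, had 51, 69 and 55 against 144, 126 and 152 (log2 -1.26). Clk3, a kinase that phosphorylates SR splicing factors, had 151, 155 and 129 against 350, 334 and 345. Its fall of 1.24 on the log2 scale lay in a window that had itself shifted by -0.77. The last of the 10, at the promoter of the long noncoding RNA gene ENSMUSG00000107132 at chr5:149461360-149462901, went against its surroundings. It had 102, 80 and 109 against 204, 210 and 216 (log2 -1.12, SE 0.11, adjusted p = 9.25e-12 by limma) in a window at 0.35.

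**Figure D5:**
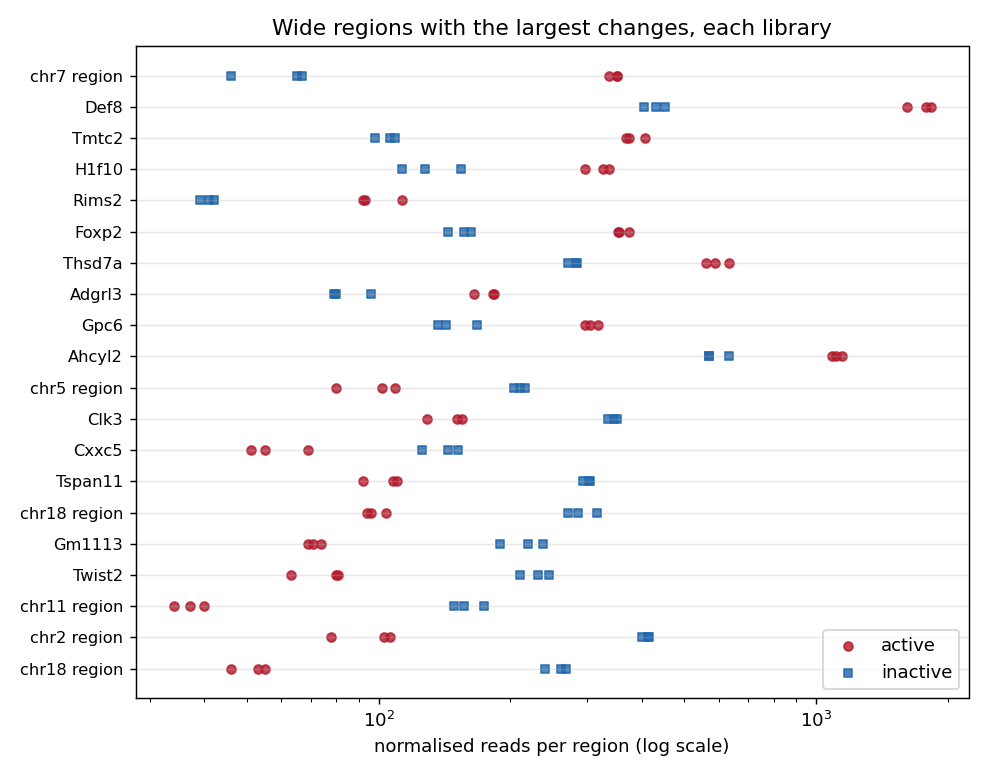
Normalised reads per region (x axis, log scale) in each active (red circles) and inactive library (blue squares) for the 10 wide regions with the largest rises (top) and the 10 with the largest falls (bottom), named by gene or chromosome. In each of the 20 regions the 3 circles lie to one side of the 3 squares.

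Some wide regions had nearly the same mean in both groups. The 5 with the fold change nearest to 0, among members with a mean of at least 200, were those of Mtfr1l, Rgl2, Gli3, Usp49 and a region with no gene at chr15:97721936-97723621. Rgl2, an exchange factor for Ral GTPases, had a mean of 430 in both groups (SD 24.3 and 12.1, n = 3 each). Gli3, a transcription factor of Hedgehog signalling, had 602, 707 and 658 in the active and 657, 652 and 657 in the inactive libraries, which overlapped; with a library left out its change lay between -0.06 and 0.06. Gli3 and the chromosome 15 region lay in raised windows, and both were lower after centring, by -0.36 and -0.37.

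The share of genes with a wide region was highest in 3 lists of regulators. Of the 11099 gene symbols with a tested region, 662 (5.96%) had a wide one. The share was 27.8% for developmental transcription factors (15 of 54 genes), 23.1% for chromatin and Polycomb genes (9 of 39) and 22.9% for RNA-binding and splicing genes (11 of 48). It was 15.4% for extracellular matrix and adhesion genes (6 of 39), 14.3% for ubiquitin and heat shock genes (4 of 28), 12.8% for actin cytoskeleton genes (5 of 39) and 12.2% for immediate-early genes (6 of 49). For p53 targets it was 10% (2 of 20), for translation genes 5.13% (2 of 39) and for noncoding RNA genes 0 of 5. These shares describe the lists and were not tested, and levels differ between the lists. The calls in them stand beside 20.2% higher and 47.2% lower among all wide regions. With values centred on the 10 Mb windows these shares were 10% and 36.3%, and 26.5% and 24.6% among all tested regions. Falls outnumber rises in most lists as they do in the whole of the wide regions. Nothing particular to a list is read from its counts, with or without centring.

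The 15 developmental transcription factors with a wide region had 3 rises, 6 falls and 6 that did not pass. Hoxa11, Foxp1 and Twist1 were higher, and Twist2, Hoxd13, Ebf3, Foxc2, Tbx18 and Zeb1 lower. Twist1, a close relative of Twist2, had 376, 406 and 369 in the active and 329, 332 and 347 in the inactive libraries, apart but near each other (log2 0.19, SE 0.07, adjusted p = 0.0148 by limma), and was -0.39 after centring in its raised window. Without active replicate 2 or inactive replicate 1 its call was lost. Tbx18, a T-box factor, had 293, 253 and 279 against 378, 351 and 350 (log2 -0.39, adjusted p = 1.75e-05 by limma) and kept its fall after centring. Zeb1, a zinc finger repressor of epithelial genes, had 164, 189 and 184 against 250, 253 and 270. It was lower by 0.52 on the log2 scale, as its window was, and stood at 0.04 after centring. The median of the 15 was -0.08, against -0.02 over all tested regions, and with centring 2 were higher and 8 lower.

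Chromatin and Polycomb genes had 3 higher, 4 lower and 2 not passing among 9 members, with a median of -0.07. H1f10, Setd5 and Dnmt3a, a de novo DNA methyltransferase, were higher. Chd4, the remodelling ATPase of the NuRD complex, Kmt2a, a histone H3 lysine methyltransferase, Hmga2 and Brd2 were lower. Kmt2a had 253, 269 and 235 against 390, 380 and 411, a clear separation (log2 -0.64, SE 0.07, adjusted p = 5.96e-10 by limma), in a window at -0.60. After centring it stood at -0.05 and did not pass (adjusted p = 0.621 by limma), and Dnmt3a went from 0.50 to -0.07. Kdm6b, a demethylase that opposes Polycomb, did not pass at first (0.04) and was higher after centring (0.27). With centring 2 of the 9 were higher and 3 lower.

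All 11 wide regions of RNA-binding and splicing genes were promoters. Luc7l2, Hnrnpd and Hnrnpdl were higher, Sfpq, Ptbp1, Hnrnph1, Srsf2, Son and Ddx39b lower, and Srsf6 and Srsf7 did not pass. Luc7l2, a factor of the U1 snRNP, had 1366, 1467 and 1301 in the active and 820, 790 and 794 in the inactive libraries (log2 0.78, SE 0.05, adjusted p = 5.55e-18 by limma). It shared a window at 0.77 and stood at 0.01 after centring. Ptbp1, a polypyrimidine tract binding repressor of exons, had 725, 686 and 709 against 891, 920 and 909 (log2 -0.36) and remained lower, at -0.19, after centring. The median of the 11 was -0.15. With centring 0 were higher and 4 lower.

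Counts in the smaller lists are few. Of the 5 actin cytoskeleton members Tpm4, Pfn1, Lasp1 and Acta2 fell, and Tagln2 did not pass (log2 -0.09). Acta2, the smooth muscle actin, had 274, 254 and 264 against 317, 346 and 306 (log2 -0.29, adjusted p = 0.000975 by limma), but -0.02 after centring. All 4 ubiquitin and heat shock members fell, Herpud1, Xbp1, Ubb and Hsp90ab1, with a median of -0.29. So did both p53 targets, the cell cycle inhibitor Cdkn1a (-0.28) and the pro-apoptotic Bbc3 (-0.29), and both translation genes, Rpl7 (-0.15) and Eif4e (-0.25), though the call of Rpl7 was lost without active replicate 2 or inactive replicate 2 or 3, with quantile normalisation and with plain limma. Centring left 2, 2, 0 and 2 lower members in these 4 lists.

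Of the matrix genes Fbn1, Fbln2, Col4a2 and Lox were lower, Sdc1 higher and Lamc1 not past the threshold. Col4a2, a chain of basement membrane collagen, had 160, 182 and 172 against 275, 264 and 305 (log2 -0.71, SE 0.09, adjusted p = 2.17e-09 by limma). Lox, which crosslinks collagen and elastin, had 353, 315 and 351 against 525, 494 and 518 (log2 -0.59, SE 0.06, adjusted p = 2.53e-10 by limma). Both kept their fall after centring, at -0.60 and -0.32. The heparan sulfate proteoglycan Sdc1 turned from 0.39 to -0.18, so that with centring 0 of the 6 were higher and 5 lower.

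Immediate-early genes had 4 lower members, Cebpb, Jun, Cebpd and Egr1, 1 higher, Bhlhe40, and 1 that did not pass, Dusp4. Jun, a subunit of AP-1, had 1093, 1115 and 1117 in the active and 1191, 1243 and 1248 in the inactive libraries. The groups were apart by a small step (log2 -0.15, SE 0.04, adjusted p = 0.00266 by limma), in a window at 0.17, and the change was -0.32 after centring. With centring 0 of the 6 were higher and 5 lower, all but Egr1, beside 10% higher and 36.3% lower among all wide regions.

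Most wide regions had no other wide region within 50 kb. Of the 810, 72 had one, in 35 loci, of which 33 had 2 members and 2 had 3. This was not set against the spacing of other regions. In 13 loci all members were lower, in 2 all were higher, in 6 none passed, and in 1 they moved in opposite directions. One of the triple loci was the posterior HoxA cluster, with wide regions at Hoxa9, Hoxa11 and Hoxa13, homeobox genes of limb and body axis. Hoxa11 was higher (350, 362 and 325 against 274, 281 and 307; log2 0.27, adjusted p = 0.00179 by limma). Hoxa9 (0.11) and Hoxa13 (0.15) did not pass, and all 3 were below 0 after centring, at -0.22, -0.06 and -0.18. The other was around Skida1 on chromosome 2, with 3 lower members at -0.41, -0.32 and -0.24, which stood at -0.17, -0.08 and 0.01 after centring.

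The promoter of Kdm7a, a histone demethylase, and a region 3604 bp from a gene with no symbol rose by the same amount. Kdm7a had 657, 818 and 776 in the active and 462, 447 and 415 in the inactive libraries (log2 0.76, SE 0.06, adjusted p = 6.85e-13 by limma), and its neighbour stood at 0.77. Their window was at 0.77, and both were at -0.01 after centring. The other locus with rises, Hhipl1 and the brain cholesterol hydroxylase Cyp46a1, had 0.82 and 0.57 in a window at 0.57, leaving 0.25 and -0.000302. At Cxxc5 the neighbouring member fell by 0.51 on the log2 scale, less than Cxxc5 itself. The pair with opposite calls was Alyref2 (-0.15) and a region with no gene at chr1:171297311-171298979 (0.14), both small. The call of Alyref2 was lost without active or inactive replicate 3, and that of the region without active replicate 1, without inactive replicate 2 or 3, and with centring. Next to Stat6, a transcription factor of interleukin-4 signalling (-0.30), Nemp1 fell as well (-0.39).

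Genes with a wide region mostly had no other region. For 115 of them the table listed 137 narrower regions as well, with a median mean level of 81. In 54 pairs of a wide and a narrower region both were called, and 43 of these (79.6%) had the same direction. This share was not set against pairs of nearby regions from different genes. Of all called members, 87% had the sign of their surrounding window, so nothing particular to the genes is read from the pairs. The part of location in the shared direction was not tested.

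Sequencing depth could not be checked directly. The normalised totals were 6433944 to 6548535 per library, which scaling by the authors has made nearly equal, so they do not show depth. Over the members, log2 values of libraries of one group correlated at 0.985 to 0.992, and those of different groups at 0.858 to 0.881. Of 15 fibroblast markers 9 had a promoter region, whose levels summed to between 2609 and 2762 in active libraries and between 3305 and 3411 in inactive ones, and of these Twist1 alone was wide. Epithelial markers (2 of 8 with a promoter region) summed to 175 to 198 and 120 to 132, endothelial ones (2 of 7) to 115 to 138 and 23 to 31, neural ones (3 of 6) to 288 to 371 and 398 to 445, and blood cell ones (1 of 7) to 51 to 69 and 51 to 57. None of the 6 muscle markers, Myod1 and Des among them, had a promoter region. The fibroblast sum joined markers that went different ways. Of the fibroblast ones Vim, Col1a1, Fn1, Pdgfrb, Prrx1 and S100a4 were lower. Col1a2 (log2 0.57) and Twist1 (0.19) were higher, and Col3a1 did not pass. Of the epithelial ones Krt8 was higher (0.78) and Krt19 did not pass (-0.08). Both endothelial ones, Kdr (3.42) and Erg (1.11), were higher. All 3 neural ones, Gfap (-0.54), Map2 (-0.36) and Tubb3 (-0.48), were lower, and the blood cell marker Cd68 did not pass (0.19). The part of these marker levels in the results was not tested.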

How the data were processed

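ATAC-seq libraries of 6 NIH3T3 samples, 3 with the active and 3 with the inactive ribozyme, were grouped by their knock-in label. The deposited values are a score: reads per region, which the authors divided by a factor for each library and rounded, as read from the values, in which whole numbers are missing where a library was scaled up. The build was mm39, and the submitters' processing notes name DESeq2 1.36.0, featureCounts, Picard 3.1.1, STAR 2.7.11a and Trimmomatic 0.39. The peak caller, the contribution of each library to the region borders and any removal of problem regions are not given in those sources. A border set mostly by deeper libraries would bear on which regions count as wide, and this was not tested. Raw depth is unknown, so no count model and no counting interval was used.

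Members were regions whose stop minus start was at least 1500 bp. On log2(value + 1), limma 3.58.1 (R 4.3.3; eBayes with trend and robust settings) was fitted to the 51253 regions whose mean reached 10, with Benjamini-Hochberg adjustment over all of them and a threshold of 0.05. A fold change on this scale understates changes of low regions. Single values per library were compared by exact two-sided permutation over the 6 libraries. Ratios of group means are given as fold. The limma script was tested on simulated data. Python 3.11.15 with numpy 2.4.6 and pandas 2.3.3 was used for the rest.

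The regions named are the 10 widest, the 10 highest by level and by level per kb, the 10 largest rises and falls past the threshold, the 5 nearest to no change with a mean of at least 200, members at genes of the lists, members within 50 kb of each other, and those at the border of 1500 bp. A few genes of the lists are not reported here and were left out of the lists' counts. Members and lists were chosen with earlier results of these data known. Replicate numbers are shared by the groups, but the labels do not say that they mark a common batch, and same-numbered libraries did not deviate together. Alternatives were the leaving out of each library, another pseudocount (5), no filter, quantile normalisation, centring on windows of 10 Mb, plain limma, a replicate block, other widths, promoter distances and level bins.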

Additional observations from a re-analysis of the deposited data

How the results depend on the processing

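The counts of 164 higher and 382 lower wide regions stayed within 1.5 times with each library left out (142 to 168 higher, 324 to 404 lower), pseudocount 5, no filter and quantile normalisation. With the replicate block they were 163 and 372; the correlation of same-numbered libraries lay between -0.0162 and 0.00137, so the numbers do not pair them, and smallest p-values of a paired test on 3 pairs are above the threshold in any case (0.25 for wide minus narrower). Limma without trend and robust settings called 104 and 222. Centring on windows called 81 higher. A lower minimum width took in more members and gave 427 and 959, and 2000 bp took in fewer and gave 16 and 52. Lower outnumbered higher in each of these. Across leave-one-out, centring, quantile normalisation and plain limma, 169 members (28 higher, 141 lower) kept their call.

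Wide minus narrower stayed below 0 throughout, from -0.04796 without active replicate 3 to -0.1132 with bins of level per kb. Apart from the replicate block, its exact p was 0.1 with all 6 libraries in every setting but centring. With centring it was 0.2, above the smallest of 0.1, so the groups no longer separated fully. With any library left out it was 0.2, the smallest there. Wide promoter minus other wide regions was 0.0211, between 0.008547 and 0.02746 with a library left out, and -0.04555 at 2000 bp or more.

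Of 115 named members, 41 kept direction and side of the threshold in all 12 settings. Centring on windows turned the sign of 28. To above 0 went Pbx3 (0.256), Sox9 (0.167), Rgl2 (0.154), Ypel5 (0.126), Pim1 (0.120), Tnfrsf12a (0.119), chr6:125444693-125446193 (0.112), Setd1a (0.0164), Zeb1 (0.0431), chr2:18068740-18070575 (0.00697) and Ddx39b (0.003145). To below 0 went Twist1 (-0.392), Bhlhe40 (-0.277), Foxf2 (-0.248), Hoxa9 (-0.224), Ahcyl2 (-0.181), Hoxa13 (-0.180), Sdc1 (-0.179), Setd5 (-0.170), Hnrnpd (-0.101), Lamc1 (-0.0866), Dnmt3a (-0.0703), Hnrnpdl (-0.0640), Hoxa11 (-0.0629), Usp49 (-0.0266), Kdm7a (-0.0118), its neighbour at chr6:39219845-39221459 (-0.00514) and Cyp46a1 (-0.000302). It ended the calls of 28 others, and plain limma those of 22, Jun, Setd5, Twist1 and Hoxa11 among them. Quantile normalisation turned Gli2 (0.0204), Gli3 (0.0225), Rgl2 (0.0467) and chr15:97721936-97723621 (0.0508). Leaving out a library turned 9 members, none of them past the threshold with all libraries: Gli2 (-0.0962 to 0.00145), Mtfr1l (-0.0472 to 0.0453), Setd1a (-0.186 to 0.0659), Gli3 (-0.0582 to 0.0576), Foxf2 (-0.0184 to 0.190), chr15:97721936-97723621 (-0.0574 to 0.0620), Rgl2 (-0.0473 to 0.0237), Usp49 (-0.0412 to 0.0284) and Ypel5 (-0.0366 to 0.00753). The cause was not tested. Raw depth is unknown, so small changes of low regions have an unknown counting error.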
